A study of Mus musculus with 6 samples.

Results

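Actin cytoskeleton genes were examined in RAW264.7 cells, a mouse macrophage line, with and without knockdown of Trem2. The set held 10 named genes: the cytoplasmic actins Actb and Actg1, the actin monomer and turnover genes Tmsb4x, Cfl1 and Pfn1, the filament-binding genes Coro1a, Lcp1 and Myh9, the intermediate filament gene Vim, and the transcription factor gene Srf. They were taken by symbol from a count table of 56092 gene symbols, and all 10 were among the 13528 genes that passed a filter on low counts. The set was chosen because Actb, a common reference gene, had a higher value in the knockdown cells, so the difference between the groups chose the set. For these genes that difference is given as a description, no p-value is printed, and their standard errors, intervals and threshold counts describe the spread between libraries and are no independent evidence of a change.

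RNA of RAW264.7 cells that carried a control shRNA (shNC, labelled an empty vector control) or an shRNA against Trem2 (shTrem2) was sequenced as polyA-selected libraries, with 3 replicates per group. Both lines had been transduced with a lentiviral vector that also carried GFP and had been selected with puromycin, every culture of either line was given IL-4 (20 ng/mL, 24 hours) and then kept for another 24 hours with freeze-thaw debris of TCMK-1 cells, a mouse renal tubular line. The labels name 1 shNC and 1 shTrem2 genotype, and the sources used here do not say which of the study's Trem2 shRNAs the cells carried or whether the replicates were separate cultures, so the spread between replicates may be technical, and a difference between the lines cannot be told apart from an effect of the knockdown. No library without IL-4 or without debris was analysed here.

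Actin exists as free monomers and as filaments, and cells turn one into the other throughout their lives. In macrophages filaments drive crawling, membrane ruffling and the engulfment of particles such as cell debris, and monomer-binding, severing and bundling proteins set how fast filaments form and where. Free actin monomers hold the MRTF cofactors in the cytoplasm, and when monomers are used up MRTF enters the nucleus and acts with serum response factor (SRF) on genes that carry its binding site, the CArG box, among them the actin genes and Srf itself.

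Each library held between 15876061 and 19655158 estimated counts with a gene symbol, lower in the 3 shNC libraries (at most 18088372) than in the 3 shTrem2 libraries (at least 19358113). Values are given as CPM (counts relative to the library total) scaled by the TMM method, and changes as log2 fold changes of shTrem2 relative to shNC with standard errors (SE) from edgeR. A gene counted as a DEG at an FDR under 0.05 with a fold change over 1.5. As a check of the labels, Trem2 had 114, 122 and 144 CPM in the control libraries and 64.7, 63.1 and 80.1 CPM in the knockdown libraries, a log2 fold change of -0.87 (SE 0.094, adjusted p = 3.39e-06, edgeR). In FPKM, Trem2 was at 152, 174 and 208 in shNC and at 40.1, 38.6 and 46.4 in shTrem2, and limma on log2(FPKM + 1) gave a log2 fold change of -2.06. All 10 macrophage markers listed were detected, and their summed level was 5702 to 6704 CPM in shNC and 10860 to 12272 CPM in shTrem2. Lyz2, the marker with the highest count, had 40607 to 58271 counts in shNC and 130673 to 153653 in shTrem2, and so weighed heavily in this sum. Itgam and Adgre1 had lower counts in shTrem2, and the other markers had higher counts there, in libraries that were also deeper. The part of these differences in the values of the actin cytoskeleton genes was not tested. Of 6 IL-4 response genes, Arg1 had 1 to 3 counts per library, Chil3, Retnla and Ccl24 had none, Ccl17 had at most 1 count and Mrc1 had 5 to 14 counts in shNC and 56 to 71 in shTrem2. Arg1, the gene by which the study's title names the macrophages, was thus not above the floor of 3 counts that a count of 0 allows. Of 15 tubular epithelium markers, 9 had no count in any library, and their summed level was 0.879 to 1.43 CPM in shNC and 2.21 to 2.82 CPM in shTrem2, most of it Aqp1 in shTrem2. Of 9 fibroblast and muscle markers, 4 had no count, and the summed level was 1.43 to 1.77 CPM in shNC and 1.20 to 2.21 CPM in shTrem2. In bulk RNA, fewer cells of a type and less RNA per cell cannot be told apart.

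Of the 10 genes, Actb, Actg1 and Cfl1 were DEGs, all higher in shTrem2, and none was a lower DEG. Across all genes tested 21.8% were DEGs, 9.46% higher and 12.4% lower. A further 6, Tmsb4x, Pfn1, Coro1a, Lcp1, Vim and Myh9, had an FDR under 0.05 and were higher, with changes below 1.5-fold. With the DEGs included, 9 of the 10 genes had such an FDR, all higher. Of all genes tested, DEGs included, 57.4% had such an FDR, 28.8% with a higher and 28.6% with a lower level. The members with the largest change under the threshold were Vim (1.45-fold) and Lcp1 (1.38-fold), and the smallest change over it was that of Actb (1.75-fold). In 9 of the 10 genes all shTrem2 values lay above all shNC values, and across all genes tested groups were apart in 63.8%, with shTrem2 above in 32.1%. The median log2 fold change was 0.44 over the 10 genes and -2.84e-05 over all genes tested. Because these genes were chosen with the difference known, nothing is read from these counts.

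The CArG box was looked for in the promoters because several of these genes are known SRF targets. RefSeq promoter windows (GRCm38.p6, from 250 bases before to 50 bases after a start site) were matched by symbol for 9 of the 10 genes, in 11 windows, and Actb was not among them. An exact CArG box stood in the windows of 2 genes, Actg1 and Srf, and in 1.63% of the 32851 windows in the table. The stretches that hold the boxes are printed with the boxes in capitals, each from 120 bases before the start site to the base before it, on the minus strand, 5′ to 3′. The Actg1 stretch is chr11:120348496-120348615 and the Srf stretch is chr17:46556163-46556282.
Actg1: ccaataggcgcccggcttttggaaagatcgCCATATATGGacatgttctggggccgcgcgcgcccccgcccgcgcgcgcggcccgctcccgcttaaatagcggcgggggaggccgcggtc
Srf: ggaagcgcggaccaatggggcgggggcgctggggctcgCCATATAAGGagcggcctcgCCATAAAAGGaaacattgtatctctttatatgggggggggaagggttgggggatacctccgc
The Actg1 box CCATATATGG began 90 bases before the start site, and the Srf boxes CCATATAAGG and CCATAAAAGG began 82 and 62 bases before it. The TATA motif TATAAA, searched on both strands like the others, was in the windows of 3 genes (Vim, Myh9 and Srf) and in 13.6% of all windows. The GC box GGGCGG was in the windows of 8 genes, all matched members but Vim, and in 35.7% of all windows. These are matches of letters within a short window, and enhancers and introns were not searched.

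Actb (ENSMUSG00000029580, chromosome 5, 142903115 to 142906754 in GRCm38), which encodes β-actin, had 1009, 1005 and 1158 CPM in the shNC libraries, in the order of their replicate numbers, and 1871, 1661 and 2027 CPM in the shTrem2 libraries. The lowest shTrem2 library stood well above the highest shNC library, and the spread was wide within both groups, with replicate 3 the highest in each. The group means were 1057 ± 87.2 CPM (SD, n = 3) and 1853 ± 184 CPM (SD, n = 3), a log2 fold change of 0.81 (SE 0.072, 95% interval 0.65 to 0.96). Actb alone took 0.102% to 0.117% of the counts of an shNC library and 0.164% to 0.200% of those of an shTrem2 library. All 10 genes together took 0.529% to 0.566% in shNC and 0.743% to 0.822% in shTrem2.

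Actg1 (ENSMUSG00000062825, chromosome 11, 120345690 to 120348542), which encodes γ-actin, the other cytoplasmic actin, had 364, 367 and 408 CPM in shNC and 686, 628 and 710 CPM in shTrem2. The groups did not overlap, and the libraries stood in nearly the same order as for Actb, with shTrem2 replicate 2 the lowest of its group and replicate 3 the highest of each group. The log2 fold change was 0.83 (SE 0.057, 95% interval 0.70 to 0.95). The coding sequences of the actin genes are nearly alike and the genome holds processed copies of them, so reads may have been divided between them in the authors' counting, and the split between Actb and Actg1 is uncertain to that extent. Of the other actin isoforms, Acta1, Actc1 and Actbl2 had no count in any library, Acta2 (smooth muscle actin) had at most 7 counts and Actg2 at most 5, and none passed the filter on low counts.

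Cfl1 (ENSMUSG00000056201, chromosome 19, 5490455 to 5495201) encodes cofilin, which severs ageing filaments and returns monomers to the pool. It had 581, 564 and 604 CPM in shNC and 1043, 948 and 1124 CPM in shTrem2. Every shTrem2 library was above every shNC library, again with replicate 2 lowest and replicate 3 highest in shTrem2. Its log2 fold change of 0.83 (SE 0.059, 95% interval 0.71 to 0.96) was close to the values of both actin genes.

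Pfn1 (ENSMUSG00000018293, chromosome 11, 70651850 to 70654644) encodes profilin, which loads monomers with ATP and feeds them to growing filament ends. Its values were 395, 395 and 419 CPM in shNC and 551, 473 and 587 CPM in shTrem2. The groups were apart, but shTrem2 replicate 2 lay much nearer to shNC than the other shTrem2 libraries did. On the log2 scale the change was 0.41 (SE 0.066, 95% interval 0.27 to 0.56). Pfn1 had the largest relative spread of the 10 genes within shTrem2, with a coefficient of variation of 10.9%, followed by Actb with 9.93%.

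Tmsb4x (ENSMUSG00000049775, chromosome X, 167207093 to 167209315) encodes thymosin β4, a small peptide that binds and stores actin monomers. It had 454, 468 and 479 CPM in shNC and 518, 525 and 550 CPM in shTrem2. The groups did not overlap, yet the gap between them was narrow. Its log2 fold change of 0.19 (SE 0.044, 95% interval 0.089 to 0.28) was the smallest of the 9 genes that were higher.

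Coro1a (ENSMUSG00000030707, chromosome 7, 126699773 to 126707787) encodes coronin 1A, a filament-binding protein of blood cells that is found around engulfed particles. It had 308, 334 and 346 CPM in shNC and 415, 415 and 424 CPM in shTrem2. The shTrem2 libraries were close to each other and all above shNC, in which replicate 1 was lowest. This gave a log2 fold change of 0.34 (SE 0.049, 95% interval 0.24 to 0.45).

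Lcp1 (ENSMUSG00000021998, chromosome 14, 75131101 to 75230842) encodes L-plastin, which bundles filaments in leukocytes. Its values were 1163, 1103 and 1191 CPM in shNC and 1574, 1545 and 1658 CPM in shTrem2. The groups were clearly apart, and replicate 2 was the lowest and replicate 3 the highest library in each. Lcp1 had a log2 fold change of 0.47 (SE 0.048, 95% interval 0.36 to 0.57).

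Myh9 (ENSMUSG00000022443, chromosome 15, 77760587 to 77842175) encodes the heavy chain of non-muscle myosin IIA, the motor that pulls on actin filaments. It had 482, 477 and 508 CPM in shNC and 588, 596 and 572 CPM in shTrem2. The groups did not overlap, and in shTrem2 the order of the libraries was the reverse of that seen for Actb, with replicate 3 lowest and replicate 2 highest. Its log2 fold change was 0.26 (SE 0.044, 95% interval 0.16 to 0.35).

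Vim (ENSMUSG00000026728, chromosome 2, 13573927 to 13582826) encodes vimentin, the main intermediate filament protein of macrophages, which is no actin-binding protein but is listed with these genes as part of the cytoskeleton. It had 443, 457 and 463 CPM in shNC and 687, 672 and 613 CPM in shTrem2. The groups were apart, and here too shTrem2 replicate 3 was the lowest of its group. Vim had a log2 fold change of 0.53 (SE 0.050, 95% interval 0.42 to 0.64), just under the limit of 1.5-fold. With an offset for the effective transcript length in each library it was 0.60 and the gene became the fourth DEG of the set.

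Srf (ENSMUSG00000015605, chromosome 17, 46548329 to 46556175) encodes SRF, the factor that binds the CArG box. It had 46.6, 49.0 and 47.1 CPM in shNC and 41.4, 40.9 and 47.2 CPM in shTrem2. It was the only one of the 10 genes whose groups overlapped, since shTrem2 replicate 3 reached the level of shNC while replicates 1 and 2 lay below it. The log2 fold change was -0.14 (SE 0.068, 95% interval -0.28 to 0.0059). Without shTrem2 replicate 3 it was -0.22.

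**Figure D1:**
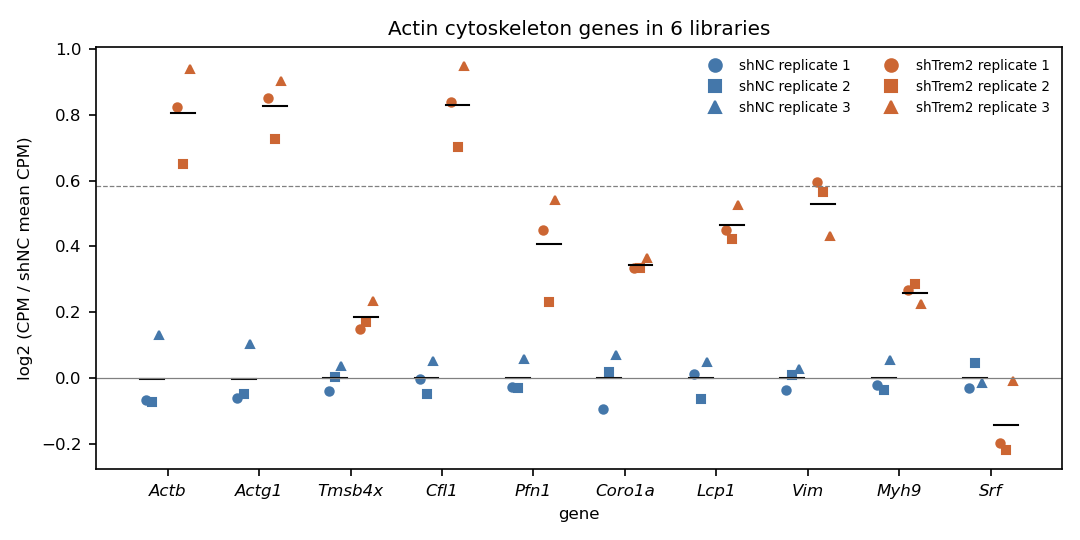
CPM of each of the 10 genes in each library as log2 of the ratio to the gene's shNC mean, with shNC in blue, shTrem2 in orange, a symbol per replicate, a short black line at each group's mean log2 ratio and a dashed line at 1.5-fold. The shTrem2 points of Actb, Actg1 and Cfl1 lie above the dashed line, those of Vim lie around it, and the Srf points of the groups overlap.

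The libraries of a group were not in the same order for every gene, but 1 order was common. In 6 of the 10 genes shTrem2 replicate 2 was the lowest and shTrem2 replicate 3 the highest library of its group, an order found in 21.7% of all genes tested. In shNC, replicate 3 was the highest library for 9 of the 10 genes and for 38.0% of all genes tested. Leaving out any 1 of the 6 libraries left Actb, Actg1 and Cfl1 as the DEGs of the set. The same difference chose the set, so these repeated calls are no further evidence of a change.

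Levels were compared between genes by FPKM, which corrects for transcript length. In shNC the highest was Tmsb4x with 1059 ± 20.1 FPKM (SD, n = 3), followed by Pfn1 (714 ± 21.0), Actb (672 ± 49.8), Lcp1 (349 ± 10.7), Cfl1 (299 ± 7.79), Coro1a (278 ± 15.4), Vim (267 ± 12.5), Actg1 (245 ± 13.1), Myh9 (69.2 ± 1.83) and Srf (22.5 ± 1.99). Neighbours whose ranges over the replicates overlapped, and whose order was therefore not set, were Pfn1 and Actb, Coro1a and Vim, and Vim and Actg1. In shTrem2 the order was Tmsb4x (1174 ± 55.6), Actb (1160 ± 118), Pfn1 (928 ± 110), Cfl1 (532 ± 40.9), Lcp1 (472 ± 16.3), Actg1 (470 ± 27.3), Vim (398 ± 26.5), Coro1a (335 ± 7.87), Myh9 (82.0 ± 1.56) and Srf (19.6 ± 0.997). Here the ranges of Tmsb4x and Actb overlapped, as did those of Lcp1 and Actg1. Actb thus stood below the thymosin gene in shNC and overlapped with it in shTrem2, and Actg1 was below Coro1a and overlapped with Vim in shNC and was above both in shTrem2. Srf, the factor of the set, had the lowest level in both groups.

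Because Actb often serves as a reference gene in RT-qPCR, it was set beside 19 other genes used for that purpose. They were chosen by that use, with earlier results of these data known. Of the 19, 15 had an FDR under 0.05, 9 higher and 6 lower in shTrem2, beside 57.4% of all genes tested. That share is over genes of every level and was not matched to the level of these genes. The DEGs were Ppia (cyclophilin A, log2 fold change 0.90, adjusted p = 1.64e-08, edgeR), Polr2a (RNA polymerase II, 0.66, adjusted p = 3.09e-08) and Ywhaz (14-3-3 zeta, 0.60, adjusted p = 1.66e-06). Gapdh, the glycolytic enzyme that the study itself used as its reference, had 875, 864 and 854 CPM in shNC and 1211, 1177 and 1243 CPM in shTrem2. Its groups were far apart for such a small spread, with a log2 fold change of 0.49 (SE 0.043, adjusted p = 5.36e-07). Tfrc (0.48), Hprt1 (0.28) and Sdha (0.24) were among the other genes that rose by less than 1.5-fold. Tfrc leaned on shTrem2 replicate 3, without which its log2 fold change was 0.30. The genes that fell were Eef2 (-0.39), Rpl13a (-0.36), B2m (-0.34), Eef1a1 (-0.27), Rpl32 (-0.18) and Rps18 (-0.17), mostly genes of the ribosome and of translation. Those that did not pass the test were Tbp (-0.14, adjusted p = 0.102), Gusb (-0.06, adjusted p = 0.258), Pgk1 (-0.01, adjusted p = 0.864) and Rplp0 (0.00, adjusted p = 0.957). Ribosomal protein genes, Gapdh and Ppia have many processed copies in the genome, which makes their counts uncertain.

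Since Actb was chosen for its higher value in shTrem2, its place among the reference genes describes that value and is no further evidence of it. Set against each reference gene in turn, the log2 ratio of Actb was higher in shTrem2 for 18 of the 19, by a median of 0.80. The difference was widest against Eef2 (1.20) and was slightly negative against Ppia (-0.10). Relative to Gapdh, the log2 ratio of Actb was 0.21, 0.22 and 0.44 in shNC and 0.63, 0.50 and 0.71 in shTrem2. The groups were apart, but the difference of 0.32 was well below the 0.81 of the TMM scale. For Actg1 the difference against Gapdh was 0.34 in CPM. In FPKM it was 0.48 for Actg1 and 0.33 for Actb, so the actins were less alike on that scale. In CPM, Actg1 and Cfl1 both had a median of 0.83 over the 19 references and a higher ratio for 18 of them. For Tmsb4x, whose change was small, the ratio was higher for 10 of the 19, and for Srf for 6. The choice of reference also moved the value of Trem2, whose log2 ratio changed by -0.87 against Rplp0, by -1.36 against Gapdh and by -1.77 against Ppia. In FPKM the same changes were -2.06, -2.54 and -3.00.

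**Figure D2:**
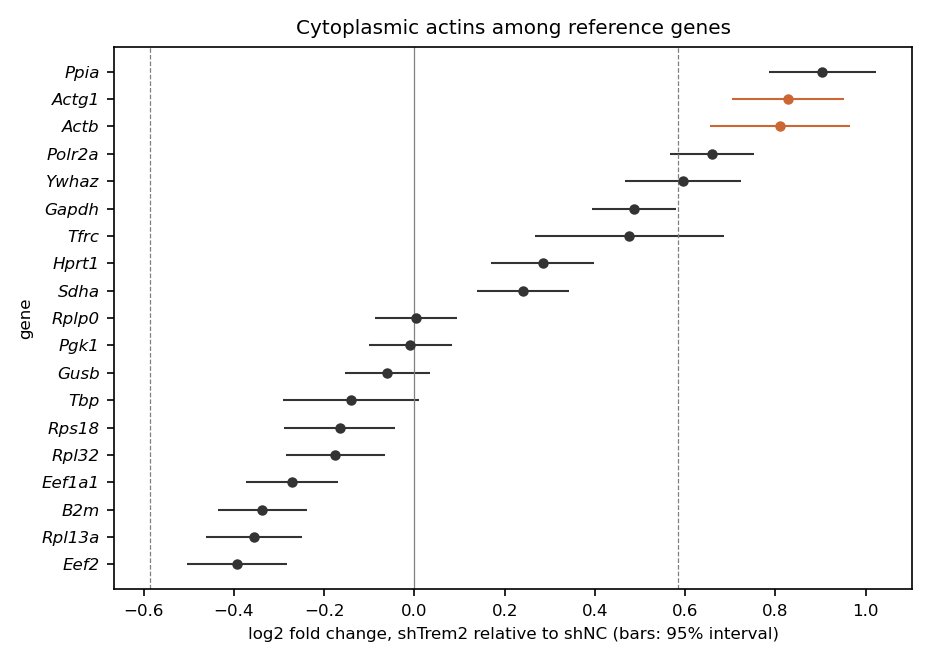
Log2 fold change of shTrem2 relative to shNC for the reference genes named here (black) and both cytoplasmic actins (orange), 1 gene per line in order of the change, with 95% intervals as bars and dashed lines at 1.5-fold in either direction. Actb (0.81) and Actg1 (0.83) lie next to Ppia (0.90) at the upper end, and the intervals of Rplp0, Pgk1, Gusb and Tbp include 0.

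How the reads of a gene were divided over its transcripts was not used to choose the set. The count table has a row per transcript without its name, so for each gene the share of the most abundant row was followed. For Actg1 the share was 88.2%, 87.6% and 86.7% in shNC and 83.0%, 80.3% and 79.0% in shTrem2. All shTrem2 libraries were below all shNC libraries, with a mean difference of -6.76 percentage points (exact permutation test, two-sided, p = 0.1, the smallest p that 3 against 3 libraries allow). The groups were also apart for Actb (99.4% in shNC, 99.0% in shTrem2), Cfl1 (99.0% and 98.3%) and Tmsb4x (98.9% and 99.5%), each by less than 1 percentage point. Among the 8 of the 10 genes with at least 10 counts in the other rows, the groups were apart in 4, lower in 3 of them, where 29.7% of 7111 such genes were apart and 14.6% were lower.

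Row names were recovered for 6 of the 10 genes by rebuilding the gene's FPKM from its rows and the transcript lengths of GENCODE M21. The main row of Actg1 matched Actg1-202, which had 332 ± 18.3 CPM (SD, n = 3) in shNC and 545 ± 35.2 CPM in shTrem2, a log2 ratio of 0.71. A second coding transcript, Actg1-204, had 36.2, 40.2 and 49.6 CPM in shNC and 86.3, 94.6 and 115 CPM in shTrem2, a log2 ratio of 1.23, and it held most of the counts outside the main row. The retained-intron transcript Actg1-208 had 0.202, 0.115 and 0.185 CPM in shNC, near the floor of 0.153 to 0.189 CPM that 3 counts give, and 2.92, 3.78 and 3.02 CPM in shTrem2. Actb-201, the main β-actin transcript, gave a log2 ratio of 0.80 and Cfl1-202 one of 0.82, close to the changes of their genes.

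For Vim, the main transcript Vim-201 had 407, 392 and 407 CPM in shNC and 567, 581 and 526 CPM in shTrem2, a log2 ratio of 0.47. The shorter coding transcript Vim-206 had 46.1 ± 13.7 and 78.4 ± 13.4 CPM (SD, n = 3), a log2 ratio of 0.77. Retained-intron transcripts were rare but followed the same direction, with Vim-203 at 3.03 and 8.35 CPM, Vim-204 at 1.97 and 6.95 CPM and Vim-205 at 0.965 and 5.23 CPM in shNC and shTrem2. For Pfn1 the main transcript Pfn1-201 and the retained-intron transcript Pfn1-203 both had a log2 ratio of 0.41, and the share of the main row of Pfn1 overlapped between groups. Rows assigned by length are estimates from the authors' assembly, and reads shared by overlapping transcripts cannot be told apart.

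**Figure D3:**
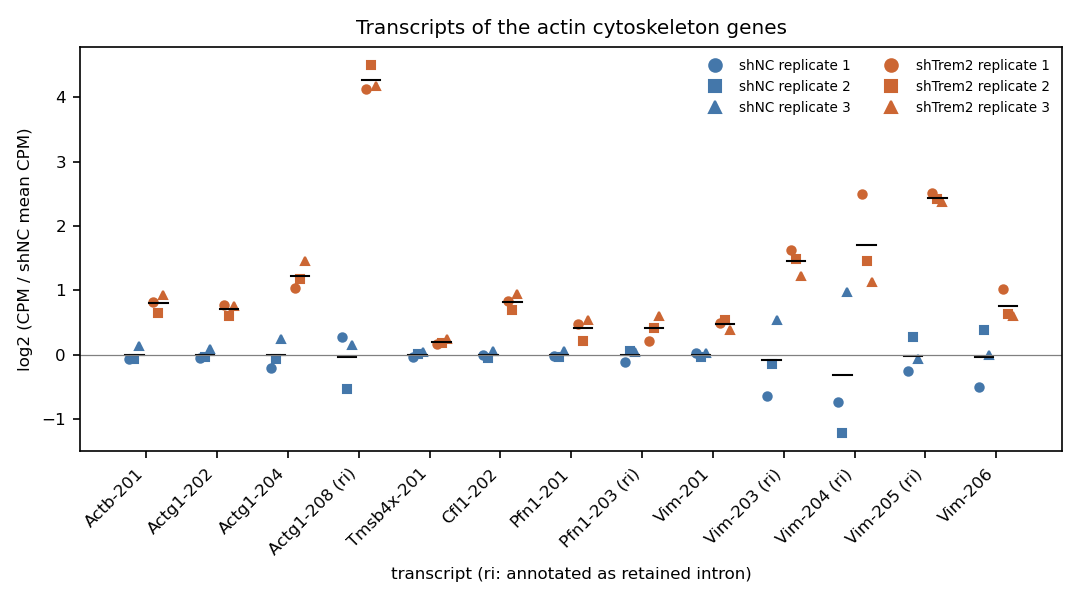
CPM of the named transcripts of 6 of the genes as log2 of the ratio to the transcript's shNC mean, by library, with shNC in blue, shTrem2 in orange, a symbol per replicate and a short black line at each group's mean log2 ratio. Main transcripts such as Actb-201 and Cfl1-202 sit near 0.8 in shTrem2, Actg1-204 lies above Actg1-202, and the low retained-intron transcripts of Actg1 and Vim (ri) have the highest ratios and a wide spread in shNC.

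The rest of the actin pathway was taken from 11 lists of actin isoforms, actin-binding and regulating genes and SRF cofactors and cytoskeletal targets, with 158 genes besides the 10, of which 130 were tested. Immediate-early SRF targets, tubulins, other intermediate filaments and reference genes were kept apart from this total. Of these 130, 46 rose and 41 fell at an FDR under 0.05 and 43 did not pass. At that FDR 28.8% of all genes tested were higher and 28.6% lower. The counts of genes that rose or fell in each list below stand beside these shares. No list was tested as a set, and no count near these shares is read as a trait of its list. DEGs were 26 of the 130 (20.0%, beside 21.8% of all genes tested), 14 higher and 12 lower, and the median log2 fold change was 0.03. With library size as the only scaling the split was 11 higher and 15 lower and the median was -0.002. Higher values like those of the actins and cofilin were thus about as common in these lists as lower ones.

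In the Arp2/3 complex, which nucleates branched filaments, 6 of 10 genes rose and 1 fell. Arpc1b, a subunit of the complex, had 481, 476 and 496 CPM in shNC and 759, 676 and 780 CPM in shTrem2, in the library order seen for Actb. It was the DEG of the list, with a log2 fold change of 0.61 (SE 0.054, adjusted p = 5.57e-07). The other genes that rose were Actr2 (0.34, adjusted p = 1.98e-05), Arpc4 (0.30, adjusted p = 0.000394), Arpc1a (0.22, adjusted p = 0.00706), Arpc3 (0.16, adjusted p = 0.00483) and Arpc2 (0.12, adjusted p = 0.0284). Arpc2 missed the threshold in 7 of 18 alternative settings. Arpc5l fell, with a log2 fold change of -0.44 (adjusted p = 2.25e-05). Actr3 (-0.03), Arpc5 (0.03) and Actr3b (0.52, at 1.91 and 2.73 CPM) did not pass.

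The list nearest in role to several members lay mostly in the other direction. Among 16 tested genes of monomer binding and filament turnover, the roles of Tmsb4x, Cfl1, Pfn1 and Coro1a, 12 fell and 3 rose. The list also held kinase and phosphatase genes that act on cofilin, which do not share these roles and were all among the 12. Across all genes tested 28.6% were lower and 28.8% higher at the same FDR. The list had a median log2 fold change of -0.37. Its named DEGs were 2 other coronin genes, Coro1c, which rose from 186 to 298 CPM (log2 fold change 0.68, adjusted p = 2.50e-08), and Coro2a, which fell from 10.4 to 6.68 CPM (-0.64, adjusted p = 0.000718). In capping and severing genes 4 of 10 rose and 1 fell, with no DEG.

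Among nucleation-promoting factors 5 of 14 rose and 2 fell, and Wasf2, a subunit of the WAVE complex that switches on Arp2/3, rose from 133 to 203 CPM (0.60, adjusted p = 8.24e-08). Formins build unbranched filaments. Of 12, 4 fell and 1 rose, with Inf2 lower (-0.77, adjusted p = 1.31e-08) and Diaph3 higher (0.69, adjusted p = 1.90e-05).

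Bundling and crosslinking genes, the class of Lcp1, rose in 8 of 16 and fell in 4. Sptan1 (spectrin) rose by 0.65 (adjusted p = 1.35e-07) and Lsp1, a filament-binding protein of leukocytes, fell to 31.7 CPM in shTrem2 (-1.59, adjusted p = 3.19e-08). Of 20 genes of myosins, the class of Myh9, myosin light chains, tropomyosins and the kinases and phosphatase subunits that act on myosin, 7 rose and 8 fell. Mylk, the kinase that activates non-muscle myosin, rose (1.41, adjusted p = 9.09e-08), as did Myo1f (1.32, adjusted p = 1.62e-08), while Myo1e fell (-0.65, adjusted p = 1.50e-07).

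Genes around SRF moved in both directions. Of its cofactors and ternary complex factors, 5 were tested, 1 rose and 2 fell, the latter being Elk3 and Elk4 (both -0.65, adjusted p = 3.65e-07 and 7.61e-07), which bind DNA beside SRF. Of 18 tested cytoskeletal SRF targets other than the members, 8 rose and 5 fell, and 4 DEGs were higher and 3 lower. The lower ones were Pdlim7 (13.6 to 8.29 CPM, -0.72), Cnn2 (6.37 to 3.93 CPM, -0.70) and Tpm2 (2.03 to 0.45 CPM, -2.16). Zyx (zyxin, a focal adhesion protein) rose from 31.3 to 65.8 CPM (1.07, adjusted p = 1.98e-08), Flna (filamin A, which crosslinks filaments) from 327 to 584 CPM (0.84, adjusted p = 5.07e-09), Filip1l to 17.7 CPM (0.83, adjusted p = 6.65e-05) and Actn1 (an α-actinin) from 106 to 175 CPM (0.72, adjusted p = 3.51e-08). Of 9 immediate-early SRF targets, 5 rose and 2 fell. Those that fell were Mcl1 (749 to 503 CPM, -0.57) and Junb (217 to 185 CPM, -0.23), both by less than 1.5-fold. Fos rose from 23.8 to 181 CPM (2.93, adjusted p = 5.03e-12), Fosb from 1.01 to 76.9 CPM (6.24, adjusted p = 6.13e-12) and Ier2 from 43.9 to 90.3 CPM (1.04, adjusted p = 3.01e-08).

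Of 26 listed cytoskeletal SRF targets, tested or not, 22 had a matched promoter window, and 7 of the 22 had an exact CArG box. Only 6 of the 9 immediate-early targets had a matched window, and 1 of the 6 had a box. Of 9600 tested genes with a window, 138 had a box, like Actg1 and Srf. Of these, 26.8% were DEGs, 14 higher (10.1%) and 23 lower, with a median log2 fold change of -0.01. Over all genes tested, with or without a window, 21.8% were DEGs, 9.46% higher and 12.4% lower.

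Vim was also set beside the other filament systems. Of 6 tested intermediate filament and lamin genes 3 rose and 2 fell, and both B-type lamin genes were higher, Lmnb1 (105 to 263 CPM, 1.33, adjusted p = 1.86e-09) and Lmnb2 (46.3 to 87.6 CPM, 0.92, adjusted p = 1.70e-08). Of 10 tubulin genes, the subunits of microtubules, 7 rose and none fell at the test, with a median log2 fold change of 0.56. Tuba1b rose from 489 to 1227 CPM (1.33, adjusted p = 2.34e-09), Tuba1a from 24.8 to 50.0 CPM (1.01, adjusted p = 5.60e-06), Tubb5 from 555 to 979 CPM (0.82, adjusted p = 1.67e-08) and Tuba1c from 207 to 349 CPM (0.75, adjusted p = 9.09e-08). The α-tubulin genes are nearly identical in sequence, so the split between them is uncertain.

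**Figure D4:**
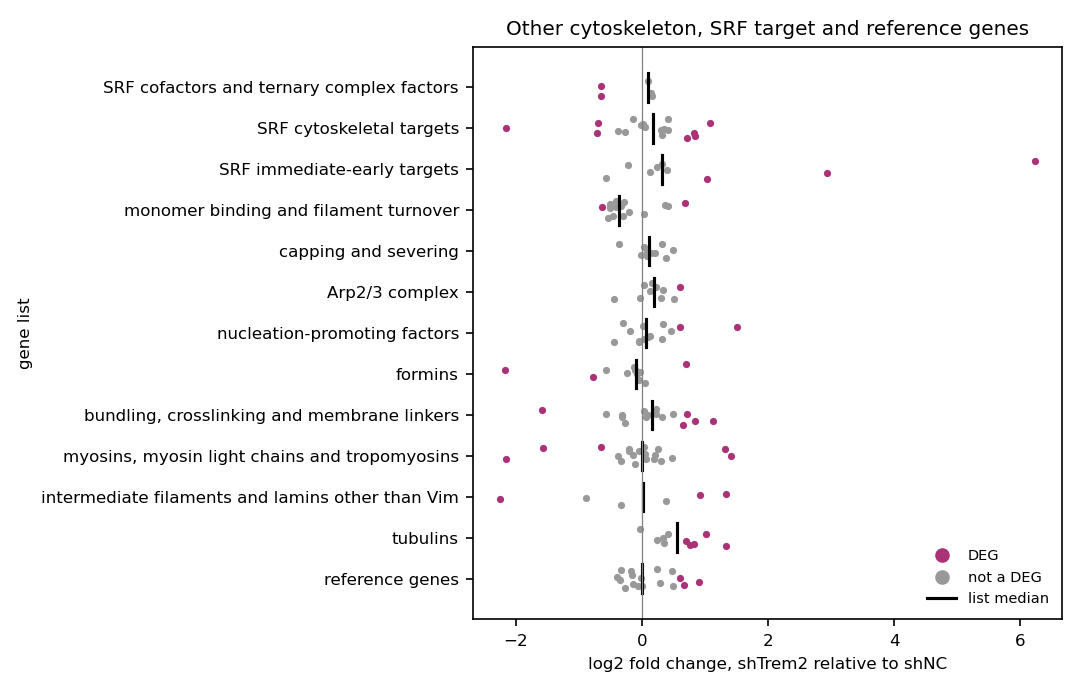
Log2 fold change of shTrem2 relative to shNC for the tested genes of the lists described here, 1 point per gene, DEGs in purple, the others in grey, and the list median as a black bar. Points lie on both sides of 0 in most lists, the median of monomer binding and filament turnover is -0.37 and that of the tubulins is 0.56, and Fosb (6.24) is the point farthest right.

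The genes whose values across the 6 libraries were most like those of Actb were sought among 6321 genes whose mean log2 CPM was 5 or more, by the root mean square difference of log2 CPM centred on each gene's mean. The nearest outside the set were Sf3b3 (a splicing factor subunit, difference 0.033), Zcchc17 (0.038), Cip2a (0.041), Nasp (a histone-binding protein, 0.043) and Sfpq (a splicing factor, 0.047). All had log2 fold changes between 0.78 (Cip2a) and 0.82 (Sfpq). On the FPKM scale Sf3b3 and Nasp remained among the nearest 5 and the others did not. Within the set, followed on the CPM scale only, Actg1 was nearest to Actb, at 0.038 with 1 gene outside the set closer. Cfl1 was next, at 0.046 with 4 closer. The others were farther away, from 0.186 for Lcp1, with 605 genes closer, to 0.483 for Srf, with 4270 closer. The difference between the groups enters this measure, so a gene can be near only if its fold change is like that of Actb. Actb was chosen for that change, so the like fold changes of the nearest genes follow from the measure. For the genes farther away it largely restates how their fold changes differed from that of Actb. It is given as a description only.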

How the data were processed

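Values were taken from tables deposited by the authors. Per the study's methods, reads were trimmed with fastp, aligned by HISAT2 with strand taken into account and assembled by StringTie, and the submitters' processing notes name GRCm39. The counting tool and annotation release are not given in the sources used here. The authors deposited estimated counts per transcript, unscaled, of which 81.6% of nonzero values were not whole (tolerance 0.001), and FPKM values per gene. The authors' group means were not used.

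Counts of all rows of a symbol were added up and then rounded. The 0.908% to 1.12% of counts in rows that lack a symbol were left out. All 6 libraries were fitted with edgeR 4.0.16 in R 4.3.3 (filterByExpr by group, TMM, quasi-likelihood test, no covariates), with Benjamini-Hochberg adjustment over 13528 genes. A count of 0 allows 3 counts, 0.153 to 0.189 CPM, which covers counting error only. No replicate pair agreed within sampling noise (chi-square per degree of freedom 2.56 to 9.92). The fit was tested on simulated data. Alternatives used limma 3.58.1, DESeq2 1.42.0, other scalings, filters, thresholds and units, and each library left out. No coordinates were converted between builds.

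The genes of the set and the lists were chosen with earlier results of these data known. Named besides the set were Trem2, all Arp2/3 genes, the reference genes, the 5 genes most like Actb, and actin isoforms and cell type markers. Up to 4 DEGs per list with the largest changes at a mean log2 CPM of at least 3 were named too. The lower DEGs among the cytoskeletal SRF targets and the immediate-early targets that fell were added to these. A few list genes and 1 list are counted in totals but not reported here.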

Additional observations from a re-analysis of the deposited data

How the results depend on the processing

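Since the difference between the groups chose the set, repeated calls of its genes describe the settings and are no further evidence of a change. Actb, Actg1 and Cfl1 were the DEGs of the set under every alternative tool, scaling, filter and left-out library, with 2 exceptions set by thresholds and 1 by length. A fold change over 2 left 0 of the 10 genes, no fold threshold gave 9, and the effective-length offset added Vim. Over all genes these thresholds gave 1339 and 7763 DEGs in place of 2951, and over the other pathway genes 9 and 87 in place of 26. Leaving out 1 library at a time gave 2789 to 3105 DEGs over all genes, 23 to 31 over the pathway genes and 3 of the set each time. The median difference of Actb over the 19 reference genes was 0.73 to 0.87 with a library left out and 0.81 in FPKM, and the genes of the set whose main transcript row differed without overlap numbered 4 to 6. With the replicate number as a block there were 2911 DEGs, 26 pathway DEGs and 3 in the set. The numbers share only a name, since same-numbered libraries of the groups were not correlated in their deviations (r from -0.00441 to 0.00657) and 0 of 3 numbers matched best with themselves. The log2 fold change of Actb ranged from 0.73 to 0.88, that of Actg1 from 0.78 to 0.97 and that of Srf from -0.22 to -0.10. The share of DEGs that were higher was 43.4%, and 39.0% with library size only. DEG calls near 1.5-fold were lost in some settings for, among others, Ywhaz (6 of 19 settings), Wasf2 (5), Arpc1b (4), Coro2a (3), Sptan1 (2) and Diaph3 (1). Rps18 lost its FDR call in 4 of the 6 fits with a library left out, and Tbp gained one without shTrem2 replicate 3 (adjusted p = 0.0498, edgeR) and with library size only. Single genes were followed over the settings only for the set, Trem2 and part of the named list genes. Among these, no gene that passed the test changed direction. Rplp0, Pgk1 and Arpc5, all near 0 and not passing, and the median of the pathway genes changed sign in some settings. Trem2 was at -2.08 with limma on log2(FPKM + 0.1) in place of -0.87, and with limma on log2(FPKM + 1) Fosb was at 4.16 and Coro2a at -0.36. With 3 libraries per group, all errors cover the spread between these libraries only.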
